A study of Mus musculus with 16 samples.

Results

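The annexins of sorted colon epithelial cells were followed in 16 mice. The members were taken by gene symbol, 10 in all out of 22396 symbols: Anxa1, Anxa2, Anxa3, Anxa4, Anxa5, Anxa6, Anxa7, Anxa10, Anxa11 and Anxa13. Of these, 9 had a value, 8 were above 0 in at least 1 mouse and the same 8 were tested for genotype in each treatment. Anxa10 was listed at 0 in all 16 mice, and Anxa13 was not analysed here. EpCAM+ cells, which carry an epithelial surface protein, were sorted from the distal colon, and bulk RNA of each mouse was sequenced. All mice carried loxP-flanked Tnfr2 alleles (Tnfr2-f/f). The knockout mice also carried Cre recombinase under the villin promoter (Vil1::Cre), which removes exon 2 of Tnfrsf1b, the gene of TNF receptor 2, from intestinal epithelium. Mice were 8 weeks old in the methods of the study. Dextran sulfate sodium (DSS), which injures the colonic epithelium, was given in drinking water for 6 days to 3 controls and 4 mice labelled knockout, and 4 controls and 5 mice labelled knockout drank plain water. The labels give 3% DSS and dissection on day 12 for every mouse, whereas the methods give 3.5% and day 0 for uninjured mice. Injured regions were picked out under a stereomicroscope before sorting, so DSS and water samples also differ in how tissue was chosen.

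Annexins are cytosolic proteins that bind acidic phospholipids when calcium rises. They carry membranes together in exocytosis and endocytosis and gather at tears in the plasma membrane during resealing. Annexin A1 also leaves the cell and acts on formyl peptide receptors to limit neutrophil entry, and in gut epithelium it is known for a part in wound closure. Annexin A2 pairs with S100A10 at the membrane, where the pair binds plasminogen and its activator.

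Values are TPM, a transcript abundance corrected for length and relative to all transcripts of the library. The level of a gene is the sum of its listed transcripts. The tables of DSS and water mice were scaled separately, and no cage held both treatments. Treatment, cage and table therefore cannot be told apart, and no test was run between DSS and water. The water mice were 4 males in cage a and 5 females in cage b, and all 7 DSS mice were females, 2 in cage c and 5 in cage d. In bulk RNA, fewer cells of a type and less RNA per cell cannot be told apart.

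Some samples bear on every result. Tnfrsf1b itself was at 11.1 to 15.5 TPM in water controls and 9.23 to 14.8 TPM in water mice labelled knockout, and at 13.3 to 22.2 and 13.5 to 27.0 TPM after DSS. The genotypes overlapped in both treatments. The sum runs over the whole transcript and not over the removed exon, so it does not check the label. The epithelial markers Epcam, Cdh1, Krt8, Krt18, Krt19, Vil1, Cldn7 and Lgals4 were present in both treatments, with none at 0. Of 14 leukocyte markers, 7 were lower in every DSS mouse than in every water mouse and 2 were higher, S100a8 and S100a9. The macrophage lysozyme gene Lyz2 was at 468 to 1060 TPM in water and 10.2 to 30.6 TPM after DSS. DSS control 3 stood apart from the other DSS mice: S100a8 was 19.3 TPM there and 113 to 904 TPM in the others, and the epithelial gene Lgals4 was 2680 TPM there and 1317 to 1776 TPM in the others.

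Sequences of 2 members are shown. Nearly all the sequence of their listed transcripts also occurs in other annotated transcripts of the same gene, unlisted ones among them. Anxa4 has 9 annotated transcripts, of which 2 are listed, and Anxa6 has 3, of which 1 is listed. The listed transcripts of Anxa7 and Anxa11 also have little sequence of their own, and they are not shown. Anxa4 lies at chr6:86736840-86793584 on the minus strand of GRCm38 and has 2 listed transcripts, ENSMUST00000113675.7 with a near start and ENSMUST00000001187.14 with a far start 27674 bases upstream. The 250 bases ahead of the far start, from RefSeq on GRCm38.p6 (chr6:86793585-86793834, minus strand), are given 5′ to 3′. No letter is in capitals because none of 5 motifs searched on both strands was found in this window. Of 32851 promoter windows of this length, 6.75% held the AP-1 motif TGANTCA and 12.6% the TEAD motif GGAATG. The SP1 motif GGGCGG was in 32.7%, the TATA box TATAAA in 12.4% and the STAT motif TTCNNNGAA in 7.02%.
Anxa4 far start: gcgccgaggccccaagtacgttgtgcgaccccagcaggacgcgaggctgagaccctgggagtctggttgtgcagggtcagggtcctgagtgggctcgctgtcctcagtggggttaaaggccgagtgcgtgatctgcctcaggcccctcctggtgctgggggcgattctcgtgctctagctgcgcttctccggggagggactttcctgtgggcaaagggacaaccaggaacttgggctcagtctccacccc

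Anxa6 lies at chr11:54979108-55033445 on the minus strand of GRCm38. Its single listed transcript, ENSMUST00000108883.9, has 26 exons and 2489 bases. A second coding transcript of 2471 bases and 25 exons was not listed, and it differs from the listed one only by lacking exon 21, which has 18 bases (chr11:54987051-54987068). The listed transcript reads across that exon as follows, with exon 21 in capitals.
Anxa6 exon 21: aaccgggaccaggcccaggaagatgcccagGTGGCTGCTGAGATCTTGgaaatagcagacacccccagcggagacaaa

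Only 1.79% of the 31-base windows of the listed Anxa6 transcript occur in no other annotated transcript. The split between it and the unlisted ones therefore rests on few positions. For Anxa4 this share was 2.38% for the far-start transcript and 0.05% for the near-start one. For the 2 listed transcripts of Anxa7 it was 0.461% and 0.111%. It was 46.4% for Anxa5, 11.1% for Anxa1, 9.78% for Anxa3, 8.26% for Anxa2 and 1.14% for Anxa11, which shares 629 windows with the predicted genes Gm2260 and Gm2274.

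The other detected members lie on GRCm38 at chr19:20373428-20390944 (Anxa1, minus strand), chr9:69453620-69491795 (Anxa2, plus), chr5:96793339-96845966 (Anxa3, plus), chr3:36448923-36475894 (Anxa5, minus), chr14:20455260-20480133 (Anxa7, minus) and chr14:25842156-25886804 (Anxa11, plus). All are protein-coding genes. Anxa1, Anxa2, Anxa3, Anxa5 and Anxa11 have 1 listed transcript each, of 8, 6, 9, 3 and 4 annotated ones, and Anxa7 has 2 of 11. Values cover the listed transcripts only, each over its whole length.

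Anxa2 was the most abundant member in every mouse. In water the order by mean TPM was Anxa2 (397 ± 78.2, SD, n = 9), Anxa1 (117 ± 23.3), Anxa4 (102 ± 14.8), Anxa11 (101 ± 8.27), Anxa5 (71.6 ± 14.1), Anxa7 (59.7 ± 6.17), Anxa3 (58.1 ± 11.7) and Anxa6 (23.6 ± 16.2). Each neighbouring pair overlapped between mice except Anxa2 and Anxa1. After DSS it was Anxa2 (535 ± 89.2, SD, n = 7), Anxa1 (303 ± 78.3), Anxa4 (228 ± 30.6), Anxa11 (117 ± 20.7), Anxa7 (71.4 ± 5.24), Anxa3 (60.3 ± 9.74), Anxa5 (52.0 ± 10.4) and Anxa6 (5.25 ± 1.15). Here Anxa1 overlapped with Anxa4, Anxa7 with Anxa3, and Anxa3 with Anxa5, and the other neighbours were separate. Anxa5 moved from the fifth place in water to the seventh after DSS.

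**Figure D1:**
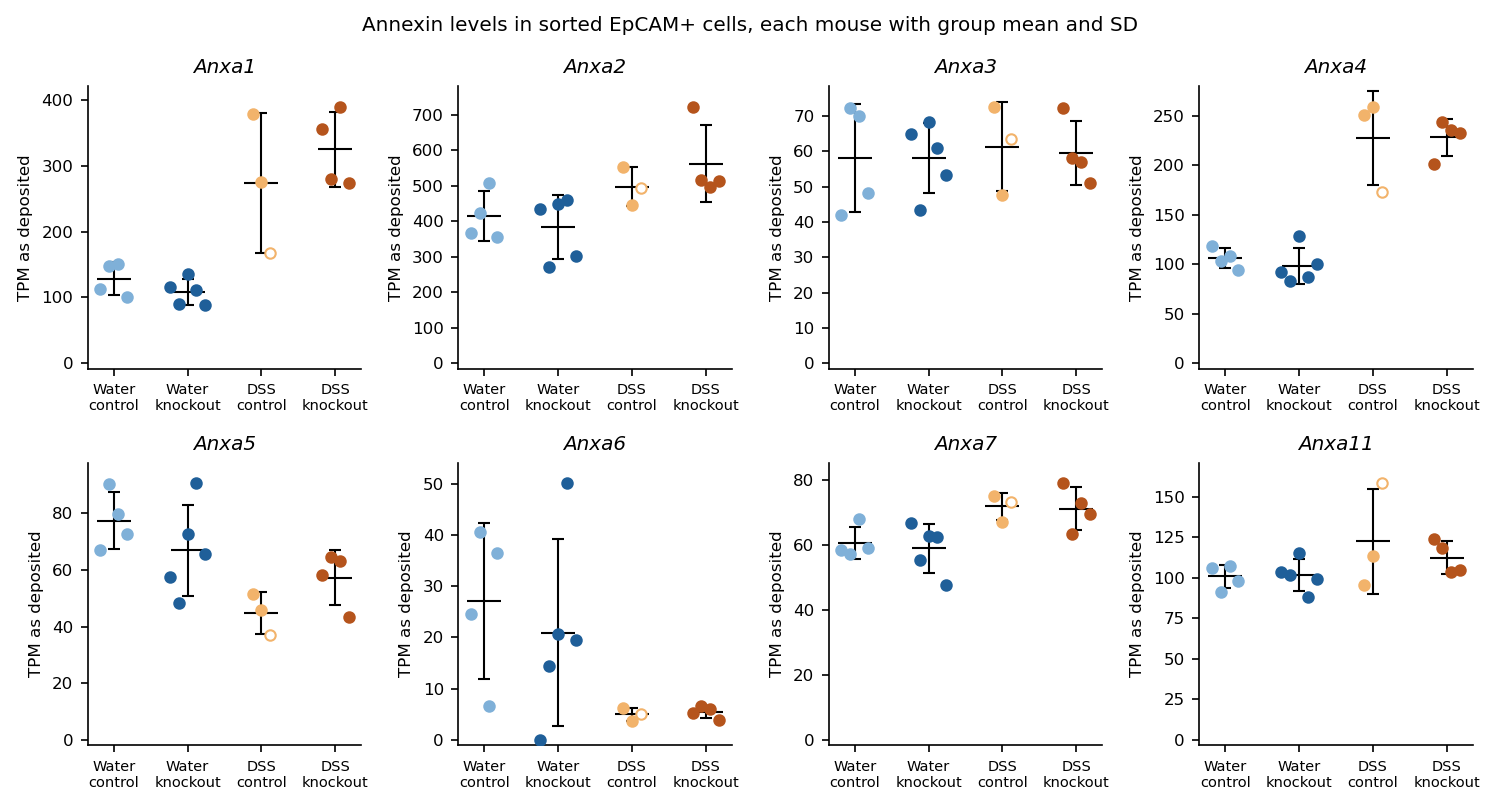
Deposited TPM of the 8 detected annexins on linear axes, with 1 point a mouse, a dash for the group mean and bars for SD. DSS control 3 is the open circle, and it is the lowest DSS mouse for Anxa1 (167 TPM), Anxa4 (173 TPM) and Anxa5 (37.0 TPM).

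Anxa1 and Anxa4 were higher in DSS mice than in water mice. Anxa1 was 112, 148, 151 and 101 TPM in water controls, 115, 90.3, 136, 111 and 87.9 TPM in water mice labelled knockout, 379, 275 and 167 TPM in DSS controls, and 356, 280, 390 and 274 TPM in DSS mice labelled knockout. As deposited, every DSS mouse was above every water mouse, and DSS control 3 was closest to the water range. Of the 11247 genes that averaged 1 TPM or more, 18.9% were higher and 4.16% lower in DSS without overlap on this scale, and their median difference was 0.32 on the log2(TPM + 1) scale.

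Values were therefore also set on a scale shared by all 16 mice, by 1 median-of-ratios rescaling, on which the median of all genes was 0.014. Anxa1 was then 0.98 higher after DSS on the log2(rescaled TPM + 1) scale (SE 0.19, n = 9 and 7), a level 1.98 times that in water. DSS control 3, at 134 rescaled TPM, fell within the water range of 95.8 to 166. Leaving out 1 mouse at a time, the treatments overlapped in 15 of 16 cases. The exception was DSS control 3, the mouse that set the overlap. Without it the difference was 1.13, where 12.2% of genes were higher and 11.9% lower without overlap. Less the median of all genes, the difference was 0.97 after rescaling and 1.03 as deposited.

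Anxa4, a member enriched in epithelia at the apical membrane, was 118, 103, 109 and 94.3 TPM in water controls and 92.1, 83.2, 129, 87.4 and 101 TPM in water mice labelled knockout. It was 251, 259 and 173 TPM in DSS controls and 201, 244, 236 and 232 TPM in DSS mice labelled knockout. It was the 1 member of 8 with no overlap after rescaling, where 4.52% of all genes were higher in DSS without overlap. By percentile rank within each mouse it was again the 1 member, where 10.1% of genes were higher and 5.63% lower without overlap. The rescaled range ended at 137 in water and began at 139 after DSS, again in DSS control 3. The difference was 0.80 (SE 0.11), a level 1.74 times that in water, and it was 0.72 in controls and 0.86 in mice labelled knockout, in each without overlap. Among mice labelled knockout Anxa1 did not overlap either, with a difference of 1.22, where 17.4% of genes were higher and 17.8% lower without overlap. In controls the Anxa1 difference was 0.68 (SE 0.40), and the treatments overlapped. Among controls 10.7% of genes were higher without overlap, and among females, where Anxa4 differed by 0.78, 7.11% were.

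The far-start transcript of Anxa4 held a median of 24.2% of Anxa4 TPM in water, with a range of 2.82% to 72.4%, and 0.486% after DSS, where it ranged from 0.0105% to 40.1%. In water controls 1 to 4 its level was 19.8, 63.5, 26.3 and 60.2 TPM, and in water mice labelled knockout 66.7, 15.4, 3.63, 40.7 and 5.17 TPM. In DSS mice it was 4.96, 1.26 and 69.2 TPM in controls and 0.0226, 6.92, 0.0248 and 0.170 TPM in mice labelled knockout. All DSS mice but control 3 were at 6.92 TPM or below, as were 2 water mice labelled knockout, and control 3 lay with the highest water mice, whose maximum was 66.7 TPM. On the rescaled scale control 3 was at 55.8 and the water maximum at 71.3. After rescaling the near-start transcript ranged from 27.2 to 133 in water and from 83.5 to 228 after DSS. Only 2.69% of the windows of the far-start transcript and 0.35% of those of the near-start one are absent from the unlisted Anxa4 transcripts. Both the split of the 2 transcripts and their sum therefore depend on how reads were divided among listed and unlisted transcripts.

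**Figure D2:**
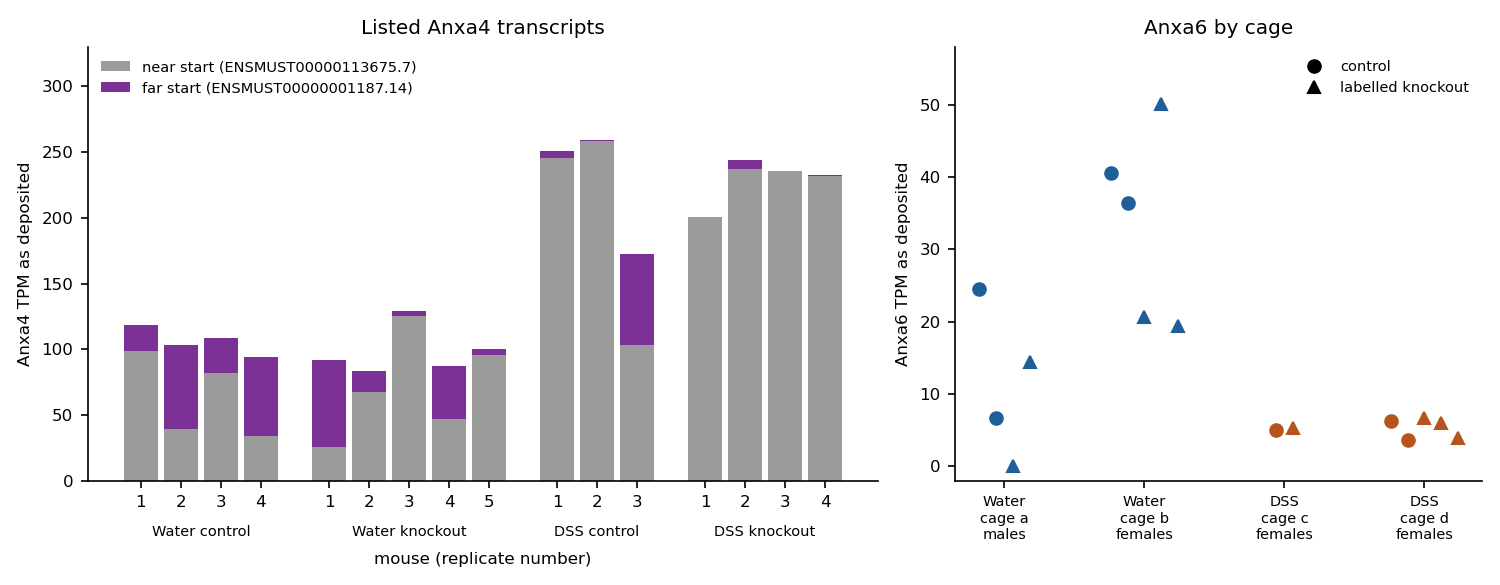
Left, stacked bars of the deposited TPM of the 2 listed Anxa4 transcripts in each mouse. Right, Anxa6 TPM of each mouse by cage, circles for controls and triangles for mice labelled knockout. The far-start share reached 72.4% in water and stayed at or below 2.84% in every DSS mouse except control 3, and all 5 females of cage b had at least 19.4 TPM of Anxa6.

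Markers of stratified squamous epithelium, 7 in the list, were higher in sum in DSS mice. Their summed rescaled TPM was 0.720 to 4.44 in water (median 1.06) and 3.07 to 19.8 after DSS (median 9.72), and 6 of 7 DSS mice were above every water mouse. Of the 7, 1 (Krt5) was higher without overlap, beside 4.52% of all genes, and the others overlapped. The lowest sum after DSS was in DSS knockout 3, where Anxa1 was 390 TPM, and the highest in DSS control 1, where Anxa1 was 379 TPM. Krt5 was at 0 in every water mouse and at 0.176 to 5.98 TPM after DSS, and Trp63 was at 0 in water and at most 0.00359 TPM after DSS. Their part in the annexin levels was not tested.

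The 3 genes with the pattern most like that of Anxa4 over 16 mice, among 7279 genes that averaged 5 TPM or more, were Hspa4, Nckap1 and Gmcl1, by the root mean square difference of centred log2 values (0.13, 0.14 and 0.14). Hspa4 encodes a heat shock protein and Nckap1 a subunit of the actin-regulating WAVE complex. Gmcl1 is the neighbour of Anxa4 on the same minus strand (chr6:86691768-86733383) and lies downstream of it, with a gap of 3456 bases between them. On the rescaled scale Gmcl1 was at 7.95 to 10.5 in water and 11.5 to 19.8 after DSS.

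Anxa5 and Anxa6 were lower in DSS mice. Annexin A5 is the member best known for binding phosphatidylserine on dying cells. Anxa5 was 66.9, 90.2, 79.8 and 72.5 TPM in water controls, 57.3, 48.3, 72.8, 90.6 and 65.7 TPM in water mice labelled knockout, 51.6, 46.0 and 37.0 TPM in DSS controls, and 58.2, 64.4, 63.2 and 43.4 TPM in DSS mice labelled knockout. The treatments overlapped as deposited and, by 1 water mouse, after rescaling, where Anxa5 was lower after DSS by 0.81 (log2 difference -0.81, SE 0.15). Leaving out 1 mouse at a time, the treatments overlapped in 15 of 16 cases. The exception was water knockout 2, the mouse that set the overlap. Without it the difference was -0.87, where 7.94% of genes were lower and 5.1% higher without overlap. In controls alone the difference was -1.12 and the treatments did not overlap, and among females it was -0.95, also without overlap. In mice labelled knockout it was -0.56 (SE 0.20), and the treatments overlapped. The shares of all genes lower in DSS without overlap were 6.96% for all mice, 13.9% for controls and 10.6% for females.

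Annexin A6, the member with a double set of annexin repeats, binds endosomal and plasma membranes. Anxa6 was 24.5, 40.5, 6.67 and 36.4 TPM in water controls, 7.19e-08, 14.4, 20.7, 50.1 and 19.4 TPM in water mice labelled knockout, 6.26, 3.64 and 5.03 TPM in DSS controls, and 5.27, 6.66, 5.97 and 3.95 TPM in DSS mice labelled knockout. Water mice spread widely for their mean, and DSS mice lay close together. The log2 difference after rescaling was -1.75 (SE 0.60). Leaving out 1 mouse at a time, the treatments overlapped in 15 of 16 cases. The exception was water knockout 1, whose estimate was near 0 and set the overlap. Without it the difference was -2.27, where 7.42% of genes were lower and 4.71% higher without overlap. The difference was -2.30 in controls and -2.71 in females, both without overlap. In mice labelled knockout it was -1.30 (SE 0.997), and the treatments overlapped. All DSS mice were female.

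Markers of several cell types also differed between treatments. The summed rescaled TPM of the 8 epithelial markers was 6742 to 9318 in water (median 7492) and 5200 to 8163 after DSS (median 5408). By this sum 6 of 7 DSS mice were below every water mouse. Krt8, Lgals4 and Krt19 made up most of the sum. Of the 8 markers taken singly, 0 were higher and 0 lower without overlap. Epcam and Cdh1 went against the sum, with their highest rescaled values after DSS (837 and 271, beside 781 and 245 in water). The sum of the 14 leukocyte markers, of which 7 were lower and 2 higher without overlap, was 825 to 1651 in water (median 1176) and 72.3 to 1634 after DSS (median 270.1), with 6 of 7 DSS mice below every water mouse and the upper end set by S100a8 and S100a9 in DSS control 1. The 5 plasma cell markers summed to 2822 to 161791 in water and 60.5 to 3361 after DSS, and the 9 stromal markers with a value to 255 to 863 and 99.9 to 455. The T cell gene Cd3e was at most 2.15 TPM in any mouse. The part of these cells in the annexin levels was not tested. The genes with the pattern least far from that of Anxa6, named after their values were seen, were Mknk1, Ifi211 and Lst1, with root mean square differences of 0.78, 0.86 and 0.97 on the log2 scale.

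Anxa2, Anxa3, Anxa7 and Anxa11 overlapped between treatments on every scale tried. Annexin A7 and annexin A11 have long amino-terminal tails and bind the calcium sensor PDCD6, and annexin A3 is known from neutrophil granules and epithelia. Anxa2 was 356 to 509 TPM in water controls, 271 to 461 TPM in water mice labelled knockout, 445 to 554 TPM in DSS controls and 497 to 723 TPM in DSS mice labelled knockout. Its rescaled log2 difference was 0.081 (SE 0.13). The differences were -0.29 (SE 0.13) for Anxa3, -0.095 (SE 0.064) for Anxa7 and -0.16 (SE 0.085) for Anxa11. As deposited they were 0.44, 0.064, 0.26 and 0.19 for Anxa2, Anxa3, Anxa7 and Anxa11, so the sign of the last 3 turned with the scale. The median rescaled difference of the 8 members was -0.13, beside 0.014 for all genes.

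**Figure D3:**
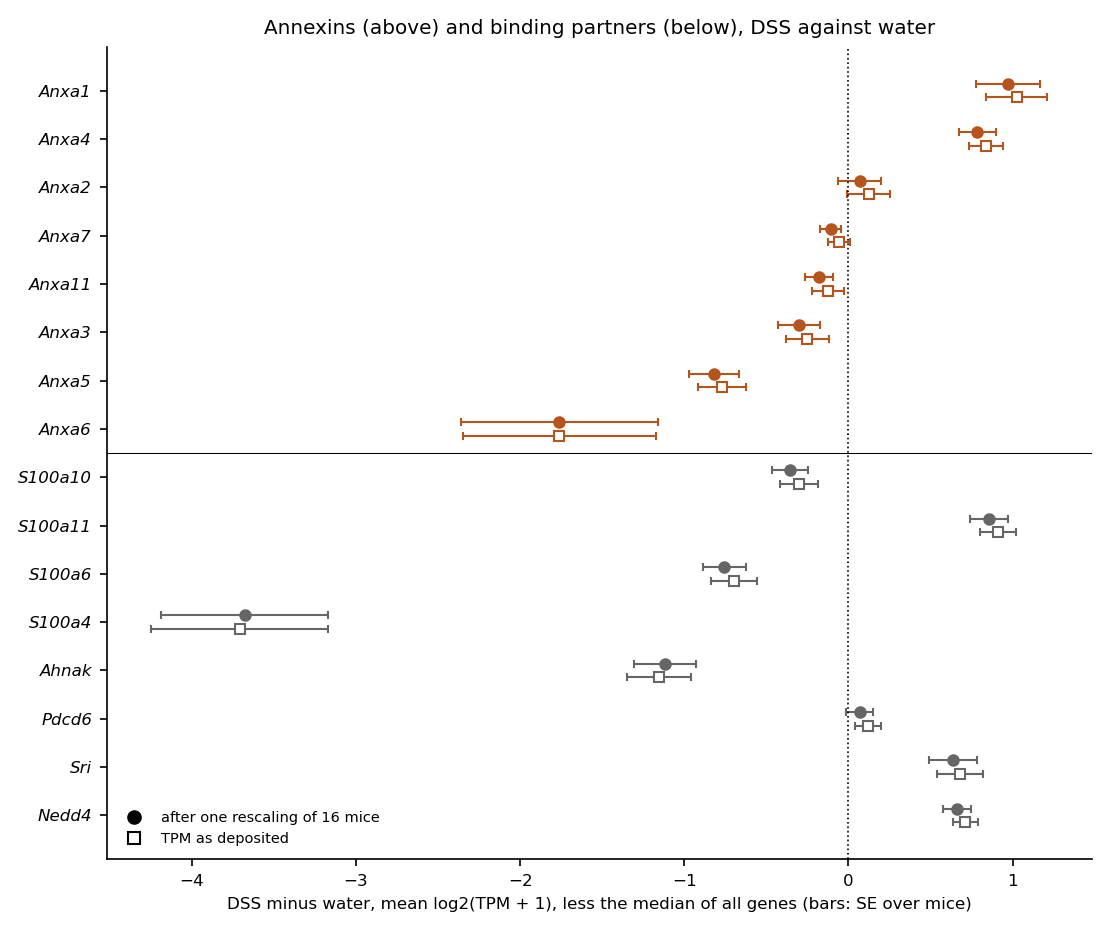
Difference between DSS and water mice in mean log2(TPM + 1), less the median of all genes, for annexins (above the line) and binding partners (below it), with bars for the SE over 9 and 7 mice. Circles are rescaled values and squares the deposited ones. Anxa1 (0.97) and Anxa4 (0.79) lie to the right, and Anxa5 (-0.82) and Anxa6 (-1.76) to the left.

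The share of each member in the summed annexin TPM of a mouse does not depend on the scale of the library. The sum itself was 707 to 1101 TPM in water and 1171 to 1618 TPM after DSS, and 774 to 1206 and 944 to 1360 after rescaling. Anxa1 was 12.5% ± 1.10 of it in water (SD, n = 9) and 21.9% ± 4.15 after DSS (SD, n = 7). Anxa2 was 42.4% ± 3.06 and 38.9% ± 3.57. Anxa4 was 11.1% ± 1.58 and 16.8% ± 2.62. Anxa1 overlapped by DSS control 3 alone, with 14.2% there and at most 14.4% in water, and Anxa2 and Anxa4 overlapped as well.

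Anxa5 was the 1 member whose share did not overlap, at 6.13% to 8.96% in water and 3.16% to 4.77% after DSS. Set against the summed annexins, 7.27% of all genes were lower and 1.55% higher in DSS without overlap. Anxa6 was 2.55% ± 1.64 in water and 0.383% ± 0.0766 after DSS. The shares sum to a fixed total, so a higher share of Anxa1 lowers the others.

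**Figure D4:**
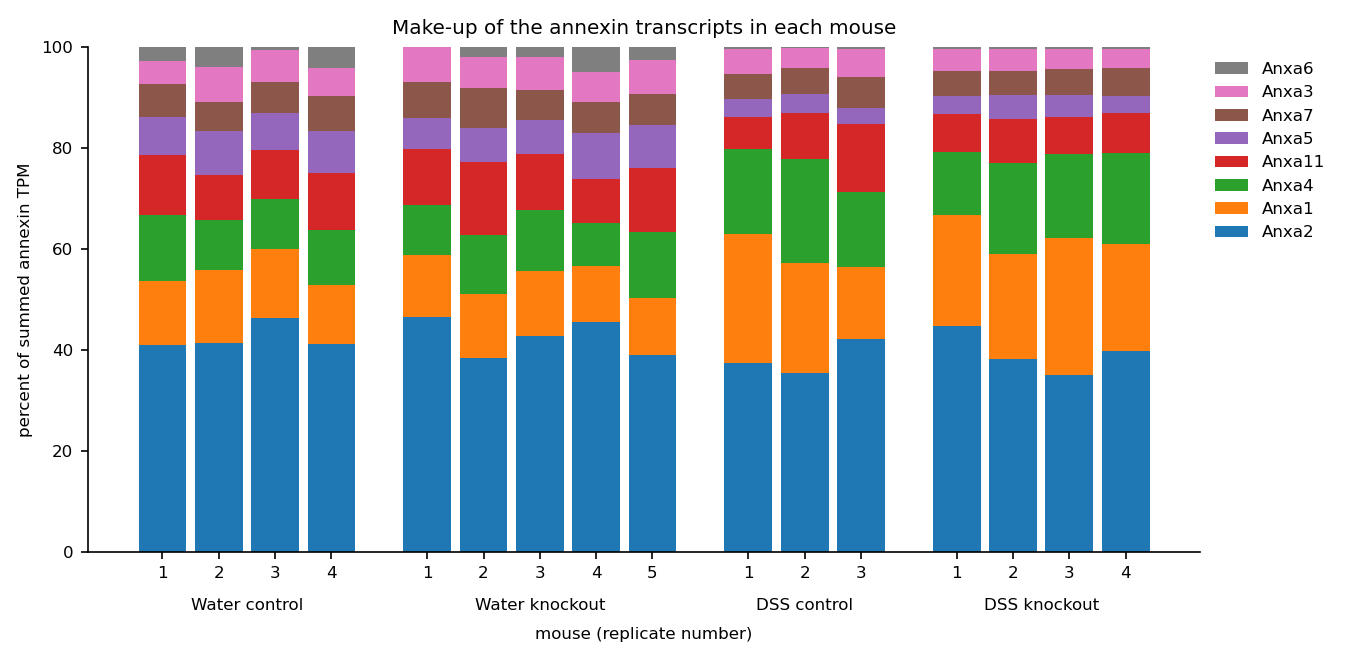
Percent of the summed annexin TPM held by each member, as stacked bars, 1 bar a mouse, by group. Anxa2 is the largest part in each bar, Anxa1 is wider in the DSS bars (14.2% to 27.3%) than in the water bars (at most 14.4%), and Anxa5 narrower.

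Annexin-binding genes did not follow their annexins uniformly. Of 15 listed, 13 reached a mean of 1 TPM, and of these 3 were higher and 2 lower in DSS without overlap after rescaling, beside 4.52% and 6.96% of all genes. Their median difference was 0.28. As deposited 4 were higher, with Pdcd6 added, and 2 lower, beside 18.9% and 4.16% of all genes. S100a11, the S100 partner of annexin A1, was higher by 0.87 (SE 0.12), at 274 to 427 TPM in water and 569 to 938 TPM after DSS as deposited. Sri, encoding the calcium-binding sorcin that binds annexin A7, was higher by 0.65 (SE 0.15), and Nedd4, a ubiquitin ligase, by 0.67 (SE 0.086). Ahnak, a scaffold bound by the annexin A2 complex, was lower by 1.10 (log2 difference -1.10, SE 0.19). S100a4, which is also high in leukocytes, had a difference of -3.66 (SE 0.51).

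S100a10, the obligate partner of annexin A2, was 386 to 665 TPM in water and 433 to 647 TPM after DSS. Its ratio to Anxa2 within a mouse, chosen after the values were seen, was 1.17 to 1.53 in water (median 1.27) and 0.842 to 1.03 after DSS (median 0.973). The treatments did not overlap. Of all genes, 5.95% had a ratio to Anxa2 that was lower in DSS without overlap and 1.11% a higher one. The ratio of S100a11 to Anxa1 overlapped, at 2.18 to 3.58 and 1.89 to 3.41. S100a6 per Anxa11 was 22.9 to 33.8 in water and 15.0 to 21.0 after DSS, and Sri per Anxa7 was 0.266 to 0.434 and 0.443 to 0.805, both without overlap. Of all genes, 5.91% were lower and 2.26% higher relative to Anxa11 without overlap, and 5.63% lower and 4.77% higher relative to Anxa7. Pdcd6 per Anxa11 overlapped.

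The formyl peptide receptor genes Fpr1 and Fpr2, which are high in neutrophils, were low. Fpr1 was at most 0.634 TPM in water and 0.313 to 11.9 TPM after DSS, and Fpr2 at most 1.38 and 10.5 TPM. The highest value of both was in DSS control 1, where S100a8 was also highest at 904 TPM. Whether the receptors came from neutrophils was not tested. The plasminogen gene Plg was at most 0.0460 TPM, and Dysf, which encodes the membrane-repair protein dysferlin, was listed at 0 in all 16 mice.

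Of the other annexins, Anxa8 was 19.2 to 33.9 TPM in water and 21.0 to 46.2 TPM after DSS, with a rescaled difference of 0.0053 (SE 0.18). Anxa9 stayed at or below 1.79 TPM. Of 12 membrane-repair genes, none was higher and 1 was lower in DSS without overlap after rescaling, beside 4.52% and 6.96% of all genes, with a median difference of -0.19. It was Capn2, a calpain, with a difference of -0.50 (SE 0.092). The count turned with the scale, with 3 higher (Pdcd6ip, Vps4b and Myof) and 0 lower as deposited, beside 18.9% and 4.16% of all genes, and 0 in either direction by percentile rank. Chmp4b of the ESCRT machinery was -0.17 (SE 0.088), and Capn1 -0.20 (SE 0.089).

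No annexin differed by genotype past the threshold in either treatment. In limma after DSS, 0 of 8 members were called, where 1 of 10899 genes was (0.00918%), and 0 members had an unadjusted p under 0.05, where 289 genes did (2.65%). In water 0 of 8 were called, with 1 of 11046 genes called (0.00905%), and again 0 members had an unadjusted p under 0.05, where 583 genes did (5.28%). The genotypes overlapped for all 8 members in both treatments. Of all genes, 2.13% were higher and 1.55% lower in every mouse labelled knockout than in every control after DSS, and 0.67% and 0.878% in water. The smallest exact p that the design allows is 0.0286 after DSS and 0.00794 in water.

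After DSS the largest differences in favour of mice labelled knockout were those of Anxa5 and Anxa1. Anxa5 differed by 0.34 on the log2(TPM + 1) scale (SE 0.18, 95% interval -0.075 to 0.76, adjusted p = 1.00 in limma, exact permutation p = 0.143). Anxa1 differed by 0.31 (SE 0.28, interval -0.33 to 0.95, adjusted p = 1.00 in limma, exact permutation p = 0.514). Without DSS control 3 the Anxa5 difference was 0.21 and the Anxa1 difference -0.0081. Within cage d, with 2 controls and 3 mice labelled knockout, they were 0.20 and -0.057, and in cage c, with 1 mouse of each, 0.64 and 1.09. The other 6 lay between -0.094 for Anxa11 and 0.16 for Anxa2. The median over the members was 0.071 and over all genes 0.015.

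In water Anxa5 differed by -0.23 (SE 0.18, interval -0.63 to 0.17, adjusted p = 0.865 in limma, exact permutation p = 0.278) and Anxa1 by -0.24 (SE 0.17, interval -0.63 to 0.15, adjusted p = 0.865 in limma, exact permutation p = 0.246). For both, the sign was opposite to that after DSS, and whether the genotype difference changed with treatment was not tested. Anxa6 differed by -0.87 (SE 1.05, interval -3.23 to 1.49), and by 0.048 without water knockout 1. The other 5 lay between -0.13 for Anxa2 and 0.020 for Anxa3. The upper ends of the 8 intervals ran from 0.15 to 1.49 in water and from 0.25 to 0.95 after DSS.

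**Figure D5:**
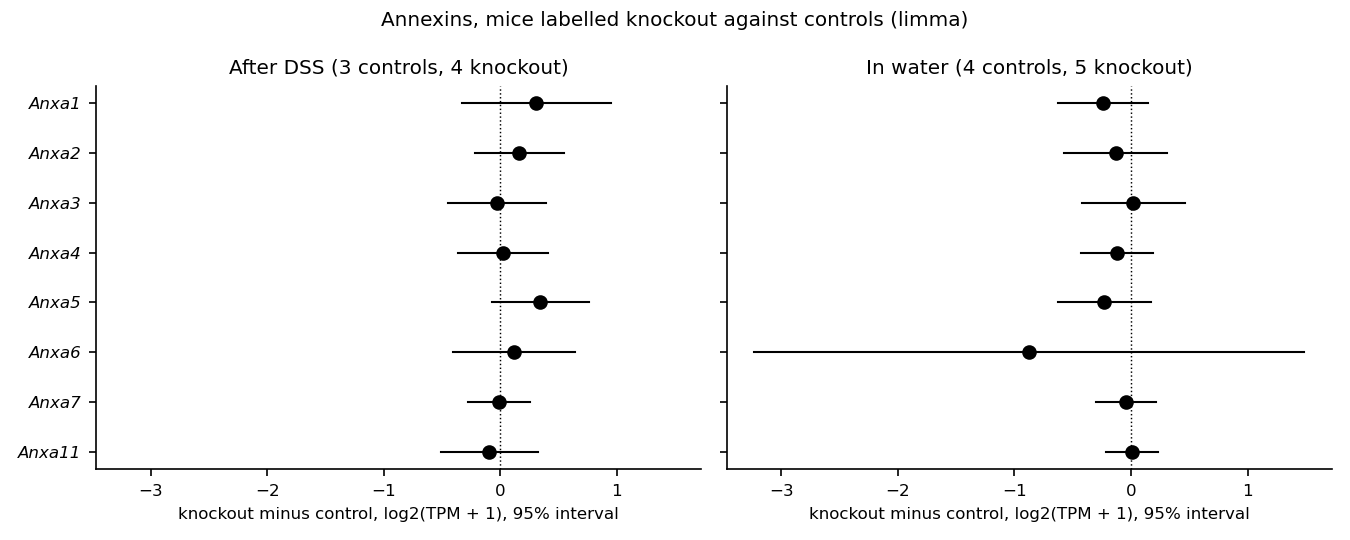
Difference between mice labelled knockout and controls in log2(TPM + 1) for each detected annexin after DSS (left) and in water (right), with 95% intervals from limma on 1 shared axis. Every interval spans 0, and that of Anxa6 in water is the widest (-3.23 to 1.49).

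Among partners, 0 of 13 tested after DSS and 0 of 11 in water were called by genotype, and 0 of 12 membrane-repair genes in either. In limma 1 of 13 partners after DSS and 1 of 11 in water had an unadjusted p under 0.05, beside 2.65% and 5.28% of genes. After DSS it was Plat, encoding tissue plasminogen activator, with a difference of 0.88 (SE 0.29, adjusted p = 1.00 in limma). The genotypes overlapped for Plat (exact permutation p = 0.0857). In water it was Nedd4 with -0.22 (SE 0.082, adjusted p = 0.865 in limma). Its exact permutation p was 0.00794, the smallest that the design allows, and was not adjusted for the number of genes. Nedd4 was lower in every water mouse labelled knockout than in every water control, as were 0.878% of genes.

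In water the 2 cages, which are also the sexes, were compared with genotype as a covariate, and 0 of 8 members were called, beside 4 of 11046 genes (0.0362%). An unadjusted p under 0.05 was found for 2 members and 6.83% of genes. Anxa6 was 24.5, 6.67, 7.19e-08 and 14.4 TPM in the males of cage a and 40.5, 36.4, 20.7, 50.1 and 19.4 TPM in the females of cage b, overlapping only by water control 1. The difference was 2.23 (SE 0.80, adjusted p = 0.704 in limma), and 1.23 to 2.92 leaving out 1 mouse at a time. Anxa5 was 48.3 to 79.8 TPM in cage a and 65.7 to 90.6 TPM in cage b, with a difference of 0.35 (SE 0.14, adjusted p = 0.704 in limma). The leukocyte markers summed to 825 to 1361 rescaled TPM in cage a and 1157 to 1651 in cage b, and their part was not tested. The other members differed by -0.099 to 0.16.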

How the data were processed

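RNA of EpCAM+ cells from 16 mice was analysed. The authors quantified 75-base reads with kallisto 0.44.0 (build mm10 in the submitters' processing notes, transcript release not given in the sources used here), tested genotype with sleuth, and deposited TPM per transcript and mouse in 2 tables, 1 for each treatment, scaled separately. The tables also hold the authors' p-values, q-values, test statistics and log2 ratios, which were not used. TPM keeps no read depth, and the number of mice sets the precision. Each table has 29373 lines, of which 385 repeat another and were dropped. TPM was summed over 28988 transcripts by symbol.

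Within each treatment, limma 3.58.1 (R 4.3.3, variance trend) compared the genotypes on log2(TPM + 1). Genes averaging 1 TPM or more were tested, p-values were adjusted over all of them (Benjamini-Hochberg, threshold 0.05), and each member was also compared by exact two-sided permutation of mice. Because mice of a group are separate animals, p-values measure the spread between animals. On simulated data the fit recovered 54% of 200 genes changed by log2 1 after DSS and 65.5% in water, with 7 and 9 false calls. The 200 genes were changed together and drawn from genes averaging 5 TPM or more. The recovery of a single changed gene, or of a smaller change, was therefore not measured. DSS and water were compared as levels, after median-of-ratios rescaling of all 16 mice and by percentile rank. Positions and transcripts are from GENCODE M21 on GRCm38, and all 11 member transcripts matched by version. No column of another sample was present. Members and gene lists were chosen with earlier results of these data known. From each list at most 8 genes with a known role were named, highest mean TPM first, and genes most like a member were named where DSS and water did not overlap. The partner ratios, the genes compared with Anxa6, partners beyond the 8 highest and genes with an unadjusted p under 0.05 were chosen after their values were seen.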

Additional observations from a re-analysis of the deposited data

Results flagged for a closer look

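Anxa2 was 723 TPM in DSS knockout 1, far from the other 3 DSS mice labelled knockout, which lay between 497 and 515 TPM. The gap was 92.3% of the range of the group. Among 24 combinations of a member and a group of 4 or 5 mice, this was the 1 such gap, and chance gives about 1 in 20. Its cause was not tested.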

How the results depend on the processing

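No member was called by genotype or cage under any alternative. Small genotype differences changed sign. After DSS they turned to 0.095 for Anxa3, 0.11 for Anxa7 and 0.031 for Anxa11 with equal sums of listed TPM, to -0.098 for Anxa4 and 0.039 for Anxa11 with array quality weights, and to -0.0084 and -0.016 for Anxa4 with cage as a covariate and quantile normalization. In water they turned to -0.22 and -0.23 for Anxa3 and Anxa11 with equal sums, and to -0.071 and -0.11 with quantile normalization. Leaving out 1 mouse at a time, the ranges that crossed 0 after DSS were -0.0081 to 0.58 for Anxa1, -0.20 to 0.10 for Anxa3, -0.16 to 0.13 for Anxa4, -0.052 to 0.27 for Anxa6, -0.066 to 0.039 for Anxa7 and -0.26 to 0.11 for Anxa11. In water they were -0.12 to 0.14 for Anxa3, -1.41 to 0.048 for Anxa6, -0.093 to 0.027 for Anxa7 and -0.039 to 0.057 for Anxa11. Between cages they were -0.082 to 0.13 for Anxa1, -0.14 to 0.17 for Anxa2 and -0.051 to 0.11 for Anxa4. The cause was not tested.

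Replicate numbers did not pair the mice, since deviations of same-numbered mice correlated at -0.20 to -0.025 after DSS and -0.077 to 0.093 in water. With the replicate block 0 members were called, Anxa3 was 0.040 after DSS and Anxa7 0.027 in water, and all genes called went from 1 to 0 in each treatment.

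Members higher in DSS without overlap numbered 1 after rescaling and 2 as deposited and among mice labelled knockout. Leaving out 1 mouse at a time they numbered 1 to 2, with 2 without DSS control 3. Of all genes, 4.52% were higher after rescaling, 18.9% as deposited, 17.4% among mice labelled knockout and 12.2% without DSS control 3. Members lower without overlap numbered 0 after rescaling and 2 among controls and among females. Leaving out 1 mouse they numbered 0 to 1, with 1 without water knockout 1 and 1 without water knockout 2. Of all genes, 6.96% were lower after rescaling, 13.9% among controls and 10.6% among females. Without water knockout 1 it was 7.42%, and without water knockout 2 7.94%. Anxa4 was higher without overlap in each of these settings. Anxa1 overlapped among controls, and Anxa5 and Anxa6 overlapped among mice labelled knockout. Depth cannot be read from TPM, so counting error is not known, and the 3 DSS controls set the width of the intervals there.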
